A study of Ogataea parapolymorpha with 2 samples.

Results

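Amino acid biosynthesis was examined through 42 genes of the yeast Ogataea parapolymorpha (Hansenula polymorpha in the labels), a methylotroph, out of 5325 protein-coding genes in the deposited count table. The members are all genes that carry at least 1 of 39 clusters of orthologous groups (COG identifiers), each of which names an enzyme family of a biosynthetic pathway, and all 39 groups had a gene. They fall into 7 sets: 13 genes for aromatic amino acids, 10 for branched-chain amino acids and lysine, 5 from aspartate to threonine, 4 for histidine, 4 for arginine, 3 for proline, and 3 for serine and glycine. The rule uses the annotation only and no measured value, but it was set with earlier results of these data known.

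The study sequenced mRNA from strain DL-1 with the genotype leu-, which both groups share, grown in rich glucose medium (YPD) at 37 °C to an optical density of 1.0. The culture was then divided. One part was harvested and gave the untreated library, and the other was given 20 mM caffeine for 2 h and gave the caffeine library. The design has 1 library in each of the 2 groups, so the differences below rest on single libraries and carry no p-value. No untreated culture of matching age is described, so time in culture and caffeine cannot be told apart.

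Yeasts can make every amino acid from the intermediates of central metabolism and ammonium, and take them up instead when the medium supplies them, as rich medium does. Pyruvate gives the branched-chain amino acids, 3-phosphoglycerate gives serine and glycine, oxaloacetate gives aspartate and threonine, and 2-oxoglutarate gives arginine, proline and, in fungi, lysine. Erythrose phosphate and phosphoenolpyruvate enter the aromatic pathway, and histidine starts from phosphoribosyl pyrophosphate. In the budding yeast Saccharomyces cerevisiae the factor Gcn4 switches on many of these genes together when amino acids run short. Caffeine inhibits the TOR kinase there, which senses nitrogen supply.

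Counted reads came to 19184978 in the untreated and 17789838 in the caffeine library. Levels are given as scaled CPM per kb, read counts scaled to a common library total (CPM) by the trimmed mean of M values (TMM) and divided by the gene length in kilobases. Changes are given as the log2 ratio of scaled counts, caffeine over untreated, each followed by its exact 95% interval, which reflects counting error alone. Scaling by library totals in place of TMM adds 0.22 to every log2 ratio. In RNA from a whole culture, a lower level in each cell and fewer cells that express a gene cannot be told apart. The tables give no gene symbols, so a gene is named by its locus tag and the function of its group. A group can hold proteins of more than 1 function. The files name no genome build, and positions are therefore not given.

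All 42 members reached 10 CPM in at least 1 library and were compared, as were 4861 of the 5325 protein-coding genes (91.3%). Of the members 1, HPODL_04635 of the arginine set, reached 10 CPM in the caffeine library alone. The members were mostly well-expressed genes. Their median level in the untreated library was 183 scaled CPM per kb, with a range from 4.88 to 648, and the median over all compared genes was 52.5. In the caffeine library the members had a median of 119 and a range from 13.2 to 503, against 54.7 for all compared genes.

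Most members stood lower after caffeine by a modest amount, and the arginine genes stood higher. The median log2 ratio of the 42 members was -0.36, beside 0.01 for all 4861 compared genes, and 26 members lay below 0. Among all compared genes 49.0% lay below 0. With library totals 22 members and 31.9% of all compared genes did. At least 1.5-fold lower stood 12 members, or 28.6%, while 13.0% of all compared genes did. At least 1.5-fold higher stood 3 members, or 7.14%, against 16.5% of all compared genes. With library totals the share at least 1.5-fold lower was 16.7% of members and 7.59% of all compared genes, and the share at least 1.5-fold higher was 16.7% and 26.3%.

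Past 2-fold, the members came close to the background on the higher side. At least 2-fold higher stood 3 of 42 members (7.14%), beside 7.12% of all compared genes. At least 2-fold lower stood 4 of 42 (9.52%), beside 5.27% of all compared genes. With library totals the lower count was 2, beside 175 of the 4861 compared genes, and the higher count stayed at 3, beside 564. Of the members past 2-fold 42.9% were the higher ones with TMM and 60.0% with library totals. For all compared genes these shares were 57.5% and 76.3%. Only 1 member, an acetolactate synthase group gene, stood beyond 4-fold, and it was higher, a share of 2.38% beside 1.38% of all compared genes. With 5 CPM added to both libraries it was within 4-fold, at a log2 ratio of 1.97. At least 4-fold lower stood 0 members, beside 1.03%.

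**Figure D1:**
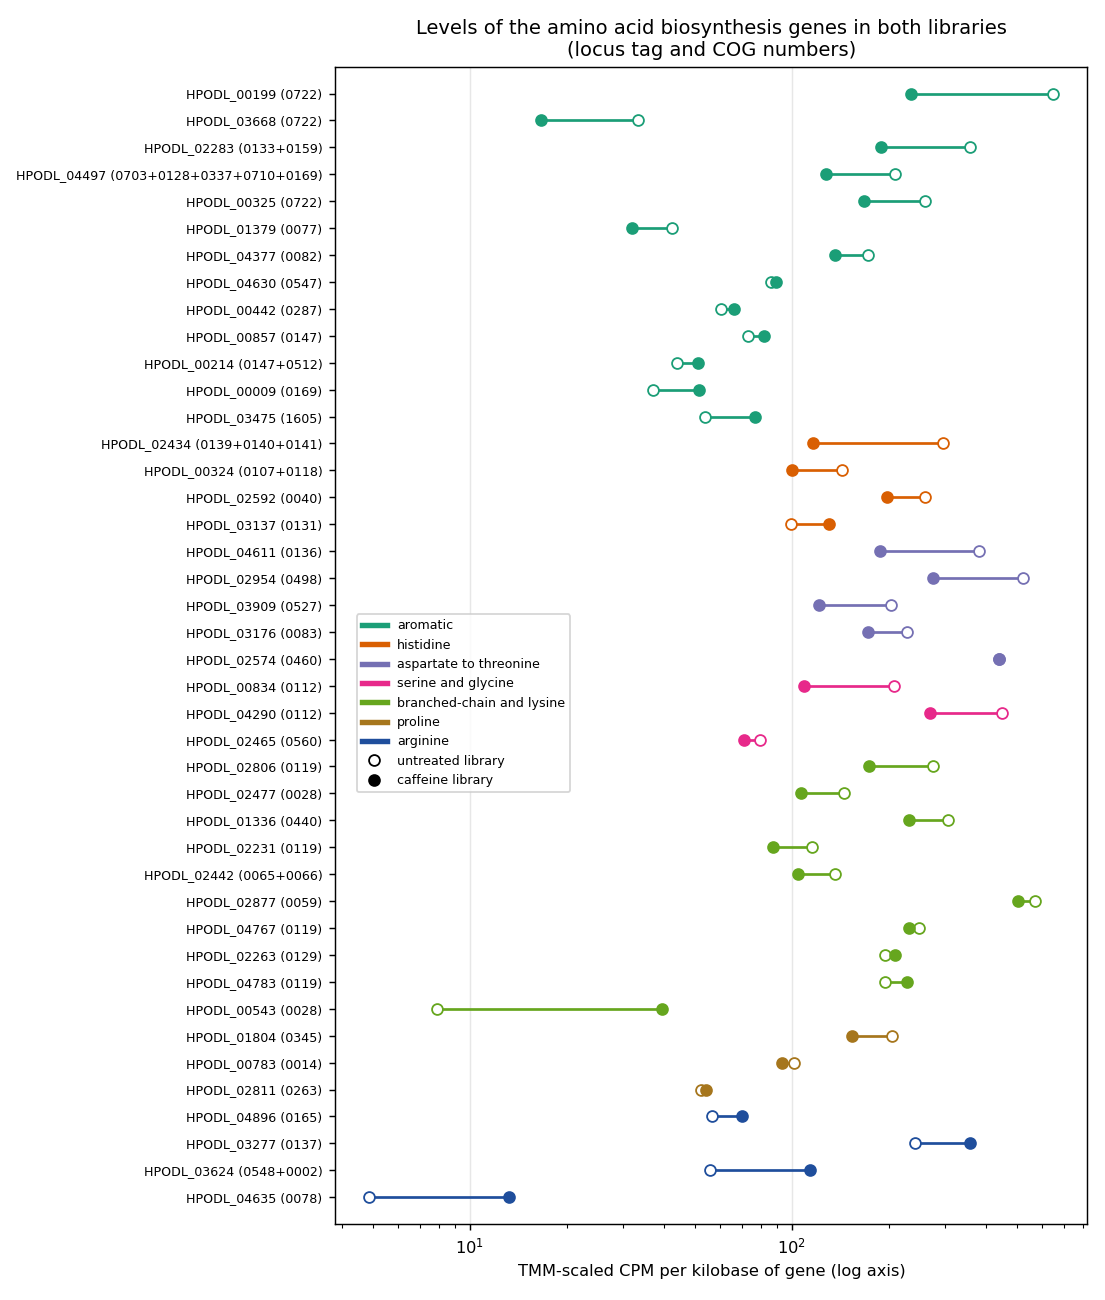
Level of each of the 42 genes in the untreated (open) and caffeine (filled) library, in TMM-scaled CPM per kilobase on a log axis, by pathway, with 1 library per point. The filled point lies left of the open one in 26 genes (22 if library totals are used), and the 4 arginine genes at the bottom all have it to the right.

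In the aromatic pathway, which leads through chorismate to phenylalanine, tyrosine and tryptophan, 7 of 13 members (53.8%) lay below 0. Among all compared genes 49.0% did. The median of the 13 was -0.34, or -0.12 with library totals. The lowest log2 ratio lay at the entry step, DAHP synthase. DAHP synthase (COG0722) joins phosphoenolpyruvate and erythrose phosphate, and 3 genes carry its group. HPODL_00199 had 13390 counts in the untreated library and 5215 in the caffeine library, a level that went from 648 to 234 scaled CPM per kb. This was the highest level of all members in the untreated library and the lowest log2 ratio of all members, -1.47 (-1.52 to -1.42). It stood 2.77-fold lower.

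The other DAHP synthase genes were also lower. HPODL_03668 had 769 and 413 counts, at 33.3 and 16.6 scaled CPM per kb, with a log2 ratio of -1.01 (-1.18 to -0.83). HPODL_00325 had 5215 and 3620 counts, at 260 and 167 scaled CPM per kb, with a log2 ratio of -0.64 (-0.70 to -0.57). The gap between HPODL_00325 and HPODL_00199, which does not depend on the scaling, was 0.83 log2 units (0.76 to 0.91). Summed over the 3 genes, the scaled CPM went from 1089 to 482, and HPODL_00199 gave 69.1% of the sum in the untreated library.

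Past the entry step, HPODL_04497 carries 5 COG identifiers, 4 of them among the 39, and has the arrangement of the pentafunctional Aro1 enzyme of fungi, which takes the pathway from DAHP through shikimate to the substrate of chorismate synthase. It had 17293 and 11371 counts, at 209 and 127 scaled CPM per kb, and a log2 ratio of -0.71 (-0.75 to -0.68). Chorismate synthase (COG0082, HPODL_04377) went from 172 to 136 scaled CPM per kb, at -0.34 (-0.41 to -0.27). A separate shikimate dehydrogenase type gene (COG0169, HPODL_00009), from 37.1 to 51.4 scaled CPM per kb, was the exception among the 6 genes up to chorismate, at 0.47 (0.31 to 0.63). The median log2 ratio of these 6 genes was -0.68.

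Beyond chorismate the median was 0.14 over 7 genes, of which 5 lay above 0. These 5 include HPODL_00214, which has the arrangement of an enzyme for a folate precursor, as described below. The summed scaled CPM of the 7 genes nevertheless went from 1220 to 916, a log2 ratio of -0.41. Tryptophan synthase, HPODL_02283, gave 61.7% of that sum in the untreated library. The median untreated level of these 7 genes was 60.2 scaled CPM per kb, and that of the genes up to chorismate was 190. Chorismate mutase (COG1605, HPODL_03475), the first step towards phenylalanine and tyrosine, had 803 and 1239 counts, at 53.6 and 76.6 scaled CPM per kb. Its log2 ratio of 0.52 (0.39 to 0.65) was the highest of the pathway, and stood 1.99 log2 units (1.85 to 2.12) above that of HPODL_00199. Prephenate dehydrogenase of the tyrosine branch (COG0287, HPODL_00442) stood at 0.14 (0.03 to 0.24), and prephenate dehydratase of the phenylalanine branch (COG0077, HPODL_01379) at -0.41 (-0.56 to -0.26).

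On the tryptophan side the members differed. Tryptophan synthase, whose alpha and beta parts (COG0159 and COG0133) share the gene HPODL_02283, had 13381 and 7671 counts, at 357 and 190 scaled CPM per kb. Its log2 ratio was -0.91 (-0.95 to -0.87). Anthranilate phosphoribosyltransferase (COG0547, HPODL_04630) was at 0.06 (-0.04 to 0.16). Of the genes of the anthranilate synthase group (COG0147), HPODL_00857 was at 0.17 (0.08 to 0.25). HPODL_00214 was at 0.21 (0.12 to 0.31), and its fusion with a glutamine amidotransferase group (COG0512) is the arrangement of the Saccharomyces cerevisiae enzyme for para-aminobenzoate, a folate precursor. Tryptophan steps between these, which are no members, lay below 0 with TMM. HPODL_03884 and HPODL_03885, each with the groups of indoleglycerol-phosphate synthase (COG0134) and the amidotransferase, stood at -0.17 (-0.30 to -0.03) and -0.43 (-0.66 to -0.20). With library totals HPODL_03884 turned to 0.05. Phosphoribosylanthranilate isomerase (COG0135, HPODL_02620), under 10 CPM in both libraries with 122 and 66 counts, was at -1.0 (-1.45 to -0.55). The split at chorismate was drawn after the values were seen, and no test of it was made.

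Among the 4 histidine members 3 lay below 0. HPODL_02434 carries the groups of histidinol dehydrogenase (COG0141), phosphoribosyl-ATP pyrophosphatase (COG0140) and phosphoribosyl-AMP cyclohydrolase (COG0139), the arrangement of the His4 enzyme of budding yeast. It had 13060 counts in the untreated library and 5546 in the caffeine library, at 295 and 116 scaled CPM per kb. Its log2 ratio was -1.35 (-1.39 to -1.30), or 2.54-fold lower, and the gene gave 57.2% of the summed scaled CPM of the 4 histidine members without the drug.

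The other histidine members moved less. Imidazoleglycerol-phosphate synthase (COG0107 and COG0118, HPODL_00324) went from 143 to 99.9 scaled CPM per kb, at -0.52 (-0.58 to -0.45). This gene lies next to the DAHP synthase gene HPODL_00325, the only neighbouring pair among the members. ATP phosphoribosyltransferase (COG0040, HPODL_02592), the committing step, went from 259 to 198, at -0.39 (-0.45 to -0.32). Imidazoleglycerol-phosphate dehydratase (COG0131, HPODL_03137) went the other way, with 1231 and 1745 counts and levels of 99.4 and 131, at 0.39 (0.29 to 0.50). It stood 1.74 log2 units (1.62 to 1.85) above HPODL_02434.

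From aspartate to threonine 4 of 5 members lay below 0, with a median of -0.74. Aspartate-semialdehyde dehydrogenase (COG0136, HPODL_04611), a step shared by threonine and methionine synthesis, had 7417 and 3932 counts, at 382 and 188 scaled CPM per kb. Its log2 ratio was -1.03 (-1.08 to -0.97), which is past 2-fold with TMM and within 2-fold with library totals. Threonine synthase (COG0498, HPODL_02954), the last step and the most abundant of the set in the untreated library, had 14260 and 8085 counts, at 522 and 274 scaled CPM per kb, and stood at -0.93 (-0.97 to -0.89).

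Aspartate kinase (COG0527, HPODL_03909), which opens the pathway, went from 203 to 122 scaled CPM per kb, at -0.74 (-0.80 to -0.68), and homoserine kinase (COG0083, HPODL_03176) from 228 to 173, at -0.40 (-0.46 to -0.33). Homoserine dehydrogenase (COG0460, HPODL_02574), which makes homoserine, where the methionine branch leaves, was level at 439 and 440 scaled CPM per kb. Its log2 ratio was 0.00 (-0.04 to 0.05). The gap between it and HPODL_04611 was 1.03 log2 units (0.96 to 1.10).

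In serine and glycine synthesis all 3 members lay below 0. Serine hydroxymethyltransferase (COG0112), which turns serine into glycine and supplies one-carbon units, has 2 genes. HPODL_04290 had 11247 and 7273 counts, at 448 and 269 scaled CPM per kb, with a log2 ratio of -0.74 (-0.78 to -0.70). HPODL_00834 had 5554 and 3145 counts, at 208 and 109 scaled CPM per kb, with a log2 ratio of -0.93 (-0.99 to -0.87). The 2 genes differed by 0.19 log2 units (0.11 to 0.27). Phosphoserine phosphatase (COG0560, HPODL_02465), the last step to serine, was nearly level at 79.7 and 71.1 scaled CPM per kb. Its log2 ratio of -0.16 (-0.28 to -0.05) turns positive with library totals.

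**Figure D2:**
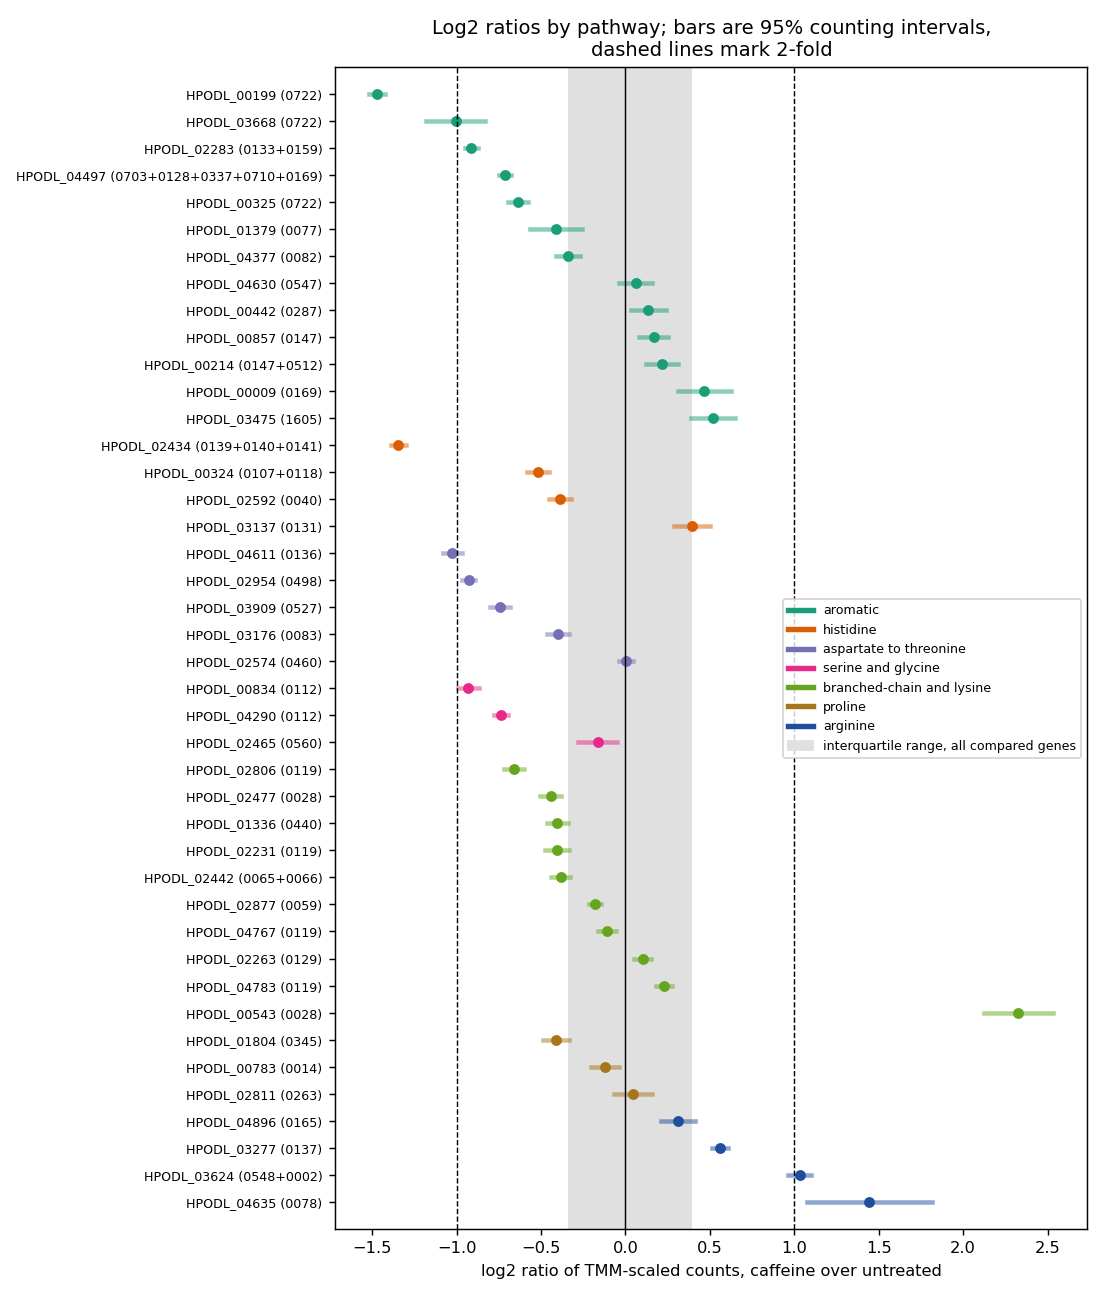
Log2 ratio of TMM-scaled counts, caffeine over untreated, for each of the 42 genes by pathway, with exact 95% counting intervals as bars, 2-fold as dashed lines and the interquartile range of all 4861 compared genes (-0.33 to 0.39) as the grey band. Past 2-fold lie 4 genes on the left (2 with library totals), in the aromatic, histidine and aspartate sets, and 3 on the right, in the branched-chain and arginine sets.

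The branched-chain and lysine set had a median of -0.28, with 7 of 10 members below 0, or 5 with library totals, and 9 of its 10 members lay within 2-fold. The tenth, HPODL_00543, belongs to the acetolactate synthase group (COG0028), which also takes in other thiamine diphosphate enzymes. It had 234 counts in the untreated library and 1266 in the caffeine library, at 7.91 and 39.6 scaled CPM per kb, and a log2 ratio of 2.33 (2.12 to 2.53), the highest of all members, or 5.01-fold higher. It ranked 45 from the top among the 4861 compared genes. In level it was among the lowest genes without the drug, at percentile 3.09 of all compared genes.

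The other gene of the group, HPODL_02477, had 5108 and 4052 counts, at 146 and 107 scaled CPM per kb, and stood at -0.44 (-0.50 to -0.38). It gave 95.6% of the summed scaled CPM of the group in the untreated library. The gap between the 2 genes was 2.77 log2 units (2.56 to 2.99). The regulatory subunit of acetolactate synthase (COG0440, HPODL_01336) stood at -0.40 (-0.46 to -0.34), near HPODL_02477 and far from HPODL_00543. Without HPODL_00543 the members ranged from -0.66 to 0.23 in this set.

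Later steps to valine and isoleucine changed little. Ketol-acid reductoisomerase (COG0059, HPODL_02877), the most abundant gene of the set at 569 and 503 scaled CPM per kb, stood at -0.18 (-0.22 to -0.14), and dihydroxyacid dehydratase (COG0129, HPODL_02263) at 0.10 (0.05 to 0.15). The isopropylmalate isomerase of leucine synthesis (COG0065 and COG0066 in the gene HPODL_02442) went from 136 to 104 scaled CPM per kb, at -0.38 (-0.44 to -0.33).

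The group COG0119 holds isopropylmalate synthase, the first step of leucine synthesis, and homocitrate synthase, the first step of lysine synthesis, and the tables do not say which of its 4 genes is which. HPODL_02806 was lowest at -0.66 (-0.72 to -0.60), with 274 and 173 scaled CPM per kb. HPODL_02231 stood at -0.40 (-0.47 to -0.33) and HPODL_04767 at -0.11 (-0.16 to -0.06). HPODL_04783 was highest at 0.23 (0.18 to 0.28), with 194 and 228 scaled CPM per kb. The gap between the highest and the lowest was 0.89 log2 units (0.81 to 0.96).

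The 3 proline genes lay closest together. Pyrroline-5-carboxylate reductase (COG0345, HPODL_01804), the last step, went from 204 to 153 scaled CPM per kb, at -0.41 (-0.49 to -0.33). Glutamyl-phosphate reductase (COG0014, HPODL_00783) went from 101 to 93.3, at -0.12 (-0.20 to -0.04), and glutamate 5-kinase (COG0263, HPODL_02811), the first step, from 52.3 to 54.0, at 0.05 (-0.07 to 0.16). The span of the set was 0.46 log2 units (0.32 to 0.59). Its median was -0.12, or 0.10 with library totals.

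Arginine was the only one of the 7 sets with every member above 0, under TMM and under library totals. Its median log2 ratio was 0.80. HPODL_04635 could only be compared because it was higher with caffeine, and a filter of 50 CPM, which drops it, gave a median of 0.61. Ornithine carbamoyltransferase (COG0078, HPODL_04635), which makes citrulline, had 83 and 243 counts, at 4.88 and 13.2 scaled CPM per kb, the lowest level of all members in each library. Its log2 ratio was 1.44 (1.08 to 1.82), or 2.71-fold higher. Acetylglutamate kinase and acetylglutamyl-phosphate reductase (COG0548 and COG0002), which act early in the pathway to ornithine, share the gene HPODL_03624, as in the Arg5,6 precursor of budding yeast. It had 2553 and 5631 counts, at 55.8 and 114 scaled CPM per kb, with a log2 ratio of 1.03 (0.96 to 1.10).

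The last steps to arginine were higher by less. Argininosuccinate synthase (COG0137, HPODL_03277), the most abundant gene of the set, had 5368 and 8534 counts, at 242 and 356 scaled CPM per kb. Its log2 ratio was 0.56 (0.51 to 0.61). Argininosuccinate lyase (COG0165, HPODL_04896) had 1400 and 1876 counts, at 56.3 and 69.9 scaled CPM per kb, and stood at 0.31 (0.21 to 0.41).

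Summed counts weight each set by its abundant genes. Over all 42 members the scaled CPM went from 12078 to 8934, a log2 ratio of -0.43 (-0.44 to -0.43), while the sum over all compared genes had one of -0.22. The histidine sum was lowest, from 1284 to 732, at -0.81 (-0.84 to -0.78). The serine and glycine sum went from 1016 to 607, at -0.74, the aromatic sum from 3506 to 2186, at -0.68, and the aspartate to threonine sum from 2246 to 1469, at -0.61. The branched-chain and lysine sum was at -0.17 and the proline sum at -0.21. The arginine sum went from 529 to 849, at 0.68 (0.65 to 0.72).

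**Figure D3:**
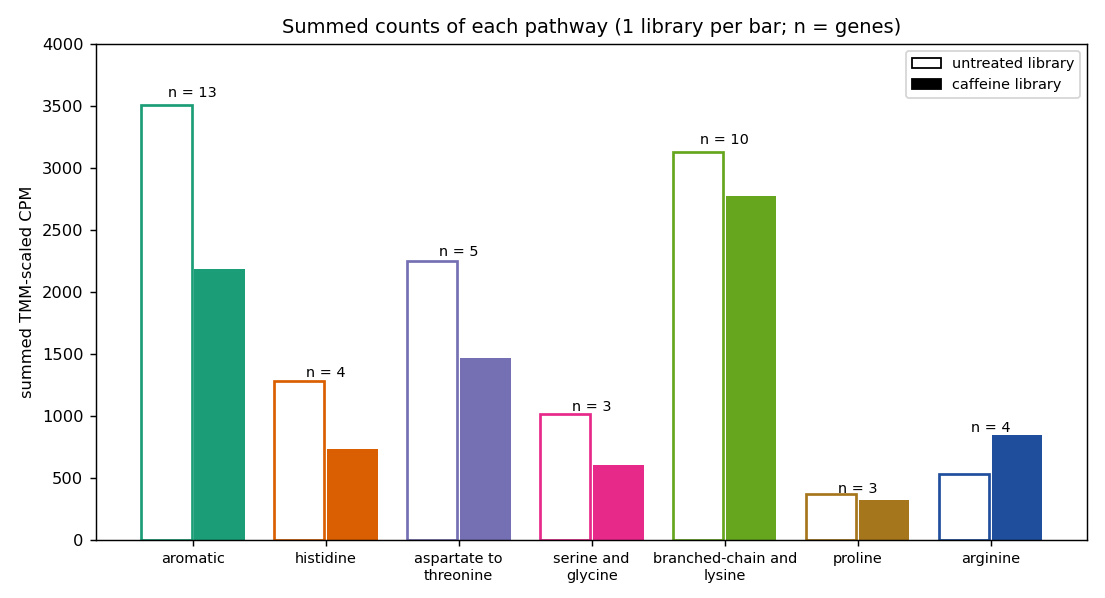
Summed TMM-scaled CPM of the members of each pathway in the untreated (open bar) and caffeine (filled bar) library, with the number of genes above the bars and 1 library per bar. The arginine bars go from 529 to 849, and the filled bar is the lower one in the other 6 sets. The sum over all compared genes also fell, at a log2 ratio of -0.22. The branched-chain and lysine sum at -0.17 and the proline sum at -0.21 fell no more than that. With library totals the branched-chain and lysine and the proline sums turn to log2 ratios of 0.04 and 0.01.

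Level and log2 ratio went together across the members. Of the 21 members with the higher mean level over both libraries 17 lay below 0, with a median of -0.64, and of the 21 with the lower level 9 did, with a median of 0.06. Spearman's rho between mean level per kb and log2 ratio was -0.48 over the 42 genes, which share the same 2 libraries. Over all 4861 compared genes rho was -0.28. Those above the median level of that set had a median log2 ratio of -0.11 and the others 0.15. The members' high level thus moves with their low ratios, and its part in the medians of the sets was not tested. The arginine set had a median level of 56.0 scaled CPM per kb in the untreated library, beside 183 for all members and 52.5 for all compared genes. Its highest level, that of HPODL_03277, lay at percentile 88.0 of all compared genes, and that gene stood above 0. Whether the level of the arginine set has a part in its ratios was not tested.

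**Figure D4:**
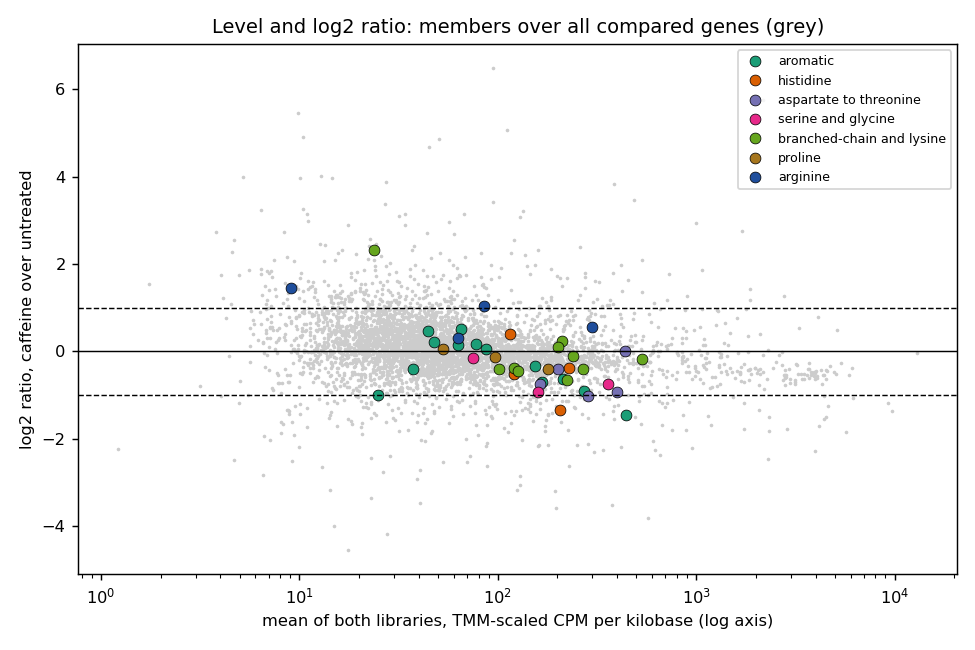
Log2 ratio, caffeine over untreated, against the mean level of both libraries in TMM-scaled CPM per kilobase (log axis), for the 42 members by pathway over all 4861 compared genes in grey, with 2-fold as dashed lines. Members at high level lie mostly below 0, with a rho of -0.48 over the members and -0.28 over all compared genes.

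Multifunctional genes were not alike. The 7 members with 2 or more COG identifiers ranged from -1.35 to 1.03, with a median of -0.52 and 5 of 7 below 0, and the 35 with 1 identifier had a median of -0.18. None of the 42 members overlaps another gene in the RefSeq annotation.

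The other enzymes of the same pathways, taken from 25 further groups, numbered 34 genes, of which 32 reached 10 CPM. Their median log2 ratio was 0.09, with 18 above 0, or 20 with library totals. Past 2-fold, 4 of them (12.5%) were higher and 2 (6.25%) were lower, beside 7.12% and 5.27% of all compared genes. With library totals these counts were 5 and 1, beside 564 and 175 of the 4861 compared genes. Of the 32 genes 3 reached 10 CPM in the caffeine library alone, HPODL_00888, HPODL_05044 and HPODL_02466, so the filter favoured values above 0 for them. Several sets did not follow the members. The other aromatic genes had a median of 0.54, with 4 of 6 above 0. With them the aromatic median was 0.06 over 19 genes in place of -0.34 over 13. The tryptophan genes HPODL_03884 and HPODL_03885 lay below 0 with TMM, and the 4 above 0 were all of the aromatic aminotransferase group (COG1167). Whether the genes of that group act in synthesis is not given, so the shift of the aromatic median rests on them. Among them HPODL_02093 stood at 2.97 (2.81 to 3.14) and HPODL_01574 at 1.72 (1.57 to 1.86). Of the other histidine genes 2 of 3 lay above 0. Of the other branched-chain and lysine genes 5 of 9 lay below 0, with a median of -0.33, and the 2 asparagine synthase genes (COG0367) stood at -0.71 (-0.74 to -0.68) and 0.71 (0.62 to 0.81).

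Of the other serine and glycine genes 3 of 4 lay below 0. Threonine aldolase (COG2008, HPODL_00754), which splits threonine into glycine, had 7693 and 3362 counts, at -1.30 (-1.36 to -1.25), the lowest of these genes. Phosphoglycerate dehydrogenase (COG0111, HPODL_05029), the first step from 3-phosphoglycerate to serine, had 9334 and 4682 counts, at -1.10 (-1.16 to -1.05), within 2-fold with library totals, and phosphoserine aminotransferase (COG1932, HPODL_03897) stood at -0.78 (-0.85 to -0.71). The second threonine aldolase gene, HPODL_01738, was at 0.38 (0.23 to 0.53). Members and other genes together, 6 of 7 genes of serine and glycine lay below 0, or 5 with library totals.

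In the arginine pathway 6 of the 8 other genes lay above 0, among them HPODL_00888 and HPODL_05044, which passed the filter through the caffeine library alone. The large chain of carbamoyl-phosphate synthase (COG0458, HPODL_02867) stood at 0.60 (0.51 to 0.69) and the small chain (COG0505, HPODL_04943) at 0.05 (-0.09 to 0.18). HPODL_00057, at 0.48 (0.46 to 0.50), joins both chains to COG0044 and COG0540, which are not among the groups listed for arginine. It gave 45.7% of the summed scaled CPM of the 8 genes in the untreated library. Whether it serves arginine synthesis is not given. The ornithine acetyltransferase (COG1364, HPODL_03918), which recycles the acetyl group between the early steps, was the lowest at -0.95 (-1.05 to -0.85). The group of ornithine and acetylornithine aminotransferases (COG4992), which serve arginine synthesis and breakdown, held the highest of the 32 genes, HPODL_00888 with 14 and 242 counts, at 4.0 (3.23 to 4.89). With 5 CPM added to both libraries it stood at 1.61, below HPODL_02093 at 2.68. The abundant gene of that group, HPODL_03561, had 37346 and 96849 counts, at 1.27 (1.25 to 1.28). The group was not uniform. HPODL_01399, with 2744 and 2127 counts, lay below 0 at -0.48 (-0.56 to -0.39), and HPODL_05044, with 172 and 348 counts, stood at 0.91 (0.64 to 1.18). Which of the 4 genes of COG4992 act in synthesis is not given in the tables.

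The labels give the strain as leu-. The group of isopropylmalate dehydrogenase, the third enzyme of leucine synthesis (COG0473), also takes in isocitrate and homoisocitrate dehydrogenases and had 4 genes, each with at least 4374 counts in both libraries. Their log2 ratios were -0.72 (-0.77 to -0.66) for HPODL_02130, -0.66 (-0.72 to -0.60) for HPODL_04851, -0.33 (-0.36 to -0.30) for HPODL_01696 and 0.01 (-0.03 to 0.04) for HPODL_03428. Neither the labels nor the tables say which gene carries the leucine mutation, so the genotype was not checked on it.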

How the data were processed

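Stranded mRNA libraries were read as paired ends of 100 bases, per the labels' protocols. Bowtie2 was used per the submitters' processing notes. Not given in the sources used here were its version, the counter, the build and the use of strand, and reads of near-identical genes could have been shared. The authors deposited gene tables of raw counts, of RPKM, and of counts scaled by RLE and TMM (a signal). RPKM served as an alternative, and the deposited TMM signal to check the scaling, which differed by 0.0003 log2 units.

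Locus tags of all 5408 features matched RefSeq assembly Hansenula_2, used for gene type and neighbours. Effective totals by TMM in edgeR 4.0.16 (R 4.3.3), over genes at 10 CPM or more in either library, were 17786139 and 19188968 reads. No test was made with edgeR or DESeq2, for want of replicates. A gene's interval turns the Clopper-Pearson 95% bounds of its caffeine share into a ratio, and exact conditional intervals are given for the gap between 2 genes (scipy 1.17.1). PCR reads are not independent molecules, so intervals cover counting error only. The calculation was tested on simulated counts. The sources give no independent cultures.

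Members, lists and alternatives were chosen with earlier results of these data known. Group functions come from general knowledge. Every member may be named. Of the other pathway genes the rule named the highest, the lowest and COG0473, and the rest were picked after their values were seen. Alternatives were library totals, DESeq2 1.42.0 size factors, upper-quartile scaling, other filters, 5 CPM added, RPKM, other memberships and other size rules.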

Additional observations from a re-analysis of the deposited data

How the results depend on the processing

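No paired analysis was possible because each group has 1 library, and for the same reason no replicate could be left out. The number of members at least 2-fold lower, 4 with TMM, was 2 with library totals, with upper-quartile scaling, with deposited RPKM, with a filter of 50 CPM, and when the whole counting interval had to pass 2-fold. Among the 4861 compared genes this number was 256 with TMM, 175 with library totals, 225 with upper-quartile scaling and 178 with deposited RPKM. It was 210 by whole intervals, and 162 with the filter of 50 CPM, which keeps fewer genes. The genes HPODL_03668 and HPODL_04611 lie within 0.03 of the limit. By a 4-fold rule 1 member was higher and 0 lower, beside 1.38% and 1.03% of all compared genes. A 1.5-fold rule gave 3 and 12, beside 16.5% and 13.0%. The 1.5-fold rule with library totals, chosen after seeing the data, gave 7 and 7, beside 26.3% and 7.59%. Medians of the 7 sets kept their sign under each scaling, filter and narrower membership tried, except that of proline. The proline median turned from -0.12 to 0.10 with library totals and to 0.09 with deposited RPKM. The aromatic median went from -0.34 to -0.12 with library totals and to -0.09 with a filter of 50 CPM. That of the branched-chain and lysine set went from -0.28 to -0.06 with library totals. Library totals also changed the sign of 4 members. With 5 CPM added, 2 members were no longer past 2-fold, HPODL_00543 was within 4-fold at 1.97, and HPODL_00888, no member, went from 4.0 to 1.61. Depth limits HPODL_04635 most among the members, with an interval from 1.08 to 1.82.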
